A study of Homo sapiens with 17 samples.

Results

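The genes described here are 35 components of the autophagy machinery, followed over 3 times in IMR-90 cells, a line of human fetal lung fibroblasts, made senescent with etoposide, a topoisomerase II poison that breaks DNA. The members were named as a list of symbols by their known role and were looked up in the deposited count tables. All 35 were present among the 41040 named genes, and all 35 were among the 16891 genes with enough counts to be tested. The study asked how senescent and non-senescent cells differ in their transcripts. The untreated cells of week 0 (5 libraries) had not received etoposide. The cells of week 1 (day 7, 6 libraries) and week 4 (day 28, 6 libraries) had received 20 µM etoposide for 48 h, after which it was removed and the culture went on. No untreated culture was kept to week 1 or week 4, so the effects of etoposide and of time in culture cannot be told apart. All cells came from a single line, and nothing in the labels states whether replicates came from separate cultures. The p-values therefore rest on the spread among these libraries, and that spread may be technical. Transcripts were measured by bulk RNA sequencing of total RNA.

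Macroautophagy encloses cytoplasm in a double membrane that fuses with the lysosome. The ULK1 kinase complex starts the process, and a class III phosphatidylinositol 3-kinase complex marks the growing membrane with phosphatidylinositol 3-phosphate. ATG9 vesicles and ATG2 lipid transfer proteins then extend the membrane, and WIPI proteins read the lipid mark. A pair of ubiquitin-like conjugation reactions attaches ATG8 proteins (the LC3 and GABARAP families) to the membrane, where cargo receptors such as p62 bind them. In senescent fibroblasts autophagy is known as a process tied to protein turnover and secretion, and p62 and LC3 proteins are themselves consumed in the lysosome, so a transcript level does not give the rate of autophagy.

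Promoter sequences are shown for 3 of the members whose transcripts differed most from week 0 and for 3 that hold a motif of interest. RefSeq promoter windows on GRCh38.p14, which run from 250 bases before to 50 bases after a start site, were matched by symbol for 32 of the 35 members, with 41 windows in all. UVRAG, RB1CC1 and MAP1LC3A had no entry. Both strands were searched for 3 motifs. GTCACGTG is the core of the CLEAR element that TFEB family factors bind, CACGTG is the E-box contained in it, and TGACNNNGC is the core of the antioxidant response element. Capitals mark a match, and an E-box within a CLEAR core is not marked apart. In the first sequence the CLEAR core reads on the opposite strand.

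The windows of ATG14 (chr14:55411781-55412080, minus strand) and ATG3 (chr3:112561913-112562212, minus strand) hold the CLEAR core and its E-box, and that of MAP1LC3B (chr16:87392086-87392385, plus strand) holds the antioxidant response core.
ATG14: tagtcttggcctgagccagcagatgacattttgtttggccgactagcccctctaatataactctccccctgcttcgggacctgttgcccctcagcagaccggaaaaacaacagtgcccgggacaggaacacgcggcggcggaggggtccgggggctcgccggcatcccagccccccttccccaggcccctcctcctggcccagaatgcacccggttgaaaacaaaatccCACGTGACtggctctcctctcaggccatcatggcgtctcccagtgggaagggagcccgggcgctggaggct
ATG3: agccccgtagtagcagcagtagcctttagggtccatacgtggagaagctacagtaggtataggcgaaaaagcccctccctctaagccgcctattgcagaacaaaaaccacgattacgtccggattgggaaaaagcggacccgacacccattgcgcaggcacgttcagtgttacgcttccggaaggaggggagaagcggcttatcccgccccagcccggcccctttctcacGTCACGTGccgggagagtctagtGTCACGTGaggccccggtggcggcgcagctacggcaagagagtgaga
MAP1LC3B: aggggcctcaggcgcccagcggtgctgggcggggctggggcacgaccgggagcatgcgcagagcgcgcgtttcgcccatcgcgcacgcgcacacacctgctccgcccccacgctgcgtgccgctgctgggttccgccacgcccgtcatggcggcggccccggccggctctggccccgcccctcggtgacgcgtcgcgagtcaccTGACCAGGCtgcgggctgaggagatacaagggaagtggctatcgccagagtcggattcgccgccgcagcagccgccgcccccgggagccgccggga

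The windows of OPTN (chr10:13099832-13100131, plus strand), WIPI1 (chr17:68457447-68457746, minus strand) and SQSTM1 (chr5:179820655-179820954, plus strand), 3 of the genes with the largest rises, hold no match to these letters, nor do the further windows of OPTN and SQSTM1.
OPTN: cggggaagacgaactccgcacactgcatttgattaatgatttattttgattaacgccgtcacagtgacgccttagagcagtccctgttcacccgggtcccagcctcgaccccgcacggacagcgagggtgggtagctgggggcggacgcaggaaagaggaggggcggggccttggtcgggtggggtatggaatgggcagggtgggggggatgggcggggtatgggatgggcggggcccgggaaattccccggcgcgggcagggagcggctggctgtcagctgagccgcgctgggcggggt
WIPI1: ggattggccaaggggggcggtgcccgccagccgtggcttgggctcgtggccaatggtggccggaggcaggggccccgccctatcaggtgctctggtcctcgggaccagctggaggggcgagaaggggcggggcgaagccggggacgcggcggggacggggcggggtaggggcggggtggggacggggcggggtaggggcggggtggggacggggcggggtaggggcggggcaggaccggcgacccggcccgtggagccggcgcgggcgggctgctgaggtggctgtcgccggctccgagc
SQSTM1: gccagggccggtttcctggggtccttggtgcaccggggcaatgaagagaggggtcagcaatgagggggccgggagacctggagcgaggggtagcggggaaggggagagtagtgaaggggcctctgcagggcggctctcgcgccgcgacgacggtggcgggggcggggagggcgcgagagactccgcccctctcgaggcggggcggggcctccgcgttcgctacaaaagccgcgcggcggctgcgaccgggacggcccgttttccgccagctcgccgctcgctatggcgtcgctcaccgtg

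The CLEAR core was in 2 of the 41 member windows (4.88%), those of ATG14 and ATG3, against 2.40% of all 35116 windows. In the ATG3 window it occurred at 2 places. The E-box was in the same 2 member windows (4.88%), against 7.26% of all windows. The antioxidant response core was in 3 member windows (7.32%), those of ATG101, CALCOCO2 and MAP1LC3B, against 13.3% of all windows. A match is a run of letters and not a measured binding site. ATG14 and ATG3, which share the CLEAR core, moved in opposite directions in the counts, as given further on.

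The libraries held 77.2 to 102.8 M counts. The biological coefficient of variation, edgeR's estimate of the spread between replicates, was 11.7%. Known marks of senescence moved with the labels. CDKN1A, the p21 cell cycle inhibitor, had a median of 293 CPM (counts scaled to a common library size) at week 0, 2138 at week 1 and 1288 at week 4. LMNB1, the lamin lost in senescent nuclei, had medians of 152, 9.71 and 18.2 CPM at week 0, week 1 and week 4. All 9 fibroblast markers were present, with summed levels of 31320 to 36810 CPM at week 0, 40660 to 42870 at week 1 and 52820 to 56030 at week 4. COL1A1 and COL1A2 made up most of these sums. The means of COL3A1, PDGFRA, PDGFRB and DCN were lower at week 1 than at week 0, and those of the other markers higher. At week 4 only PDGFRA and DCN were lower than at week 0. The 5 epithelial markers summed to 65.0 to 71.5 CPM at week 0, 234.9 to 275 at week 1 and 193 to 213 at week 4, most of it the keratin KRT18, while EPCAM and CDH1 stayed under 1 CPM in every group mean. The 5 smooth muscle and pericyte markers summed to 247 to 268, 419 to 438 and 359.9 to 382 CPM at week 0, week 1 and week 4. Most of it was CNN1 (means 150, 221.5 and 146 CPM) and NOTCH3 (100, 172 and 186 CPM). RGS5 averaged 6.29, 34.8 and 34.4 CPM and DES 0.821, 2.53 and 3.39 CPM, while MYH11 was under 1 CPM in every group mean. The 5 endothelial markers, mostly TEK, summed to 83.8 to 103.4 CPM at week 0, 58.3 to 62.2 at week 1 and 52.0 to 76.6 at week 4, with CDH5 under 1 CPM. The 6 leukocyte markers summed to less than 1 CPM in every library, and CD3E was at 0 at week 0 and week 4. The part of these markers in the results was not tested, and in bulk RNA fewer cells of a type and less RNA per cell cannot be told apart. Week 0 replicates 1 and 4 stood apart: ribosomal protein genes took 6.34% and 5.59% of their counts, against 3.45% to 4.17% in the other 3 untreated libraries and 3.56% to 4.22% in the treated ones. Members and named genes whose call against week 0 changed without them are given with and without them. So are members whose call at week 4 against week 1 changed.

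Most of the autophagy genes were higher in the senescent cells, with smaller median differences from week 0 at week 4 than at week 1. A gene was called at a Benjamini-Hochberg adjusted p under 0.05 in edgeR's quasi-likelihood test over all tested genes. At week 1 against week 0, 24 of the 35 members rose, 4 fell and 7 were not called. Of all tested genes, 32.9% were called higher and 34.0% lower, so the share of members that rose (68.6%) was above this background and the share that fell (11.4%) below it. The median log2 fold change was 0.37 over the members and -0.02 over all genes. The size of the changes was ordinary: the median absolute log2 fold change was 0.41 over the members and 0.46 over all genes, and 5 members (14.3%) were called and differed by more than 2-fold, against 20.7% of all genes. The libraries of week 1 and week 0 did not overlap for 26 of the 35 members (74.3%), against 48.7% of all genes. The members were measured more tightly than the background: the median SE was 0.058 over the members and 0.093 over all genes. These medians were the same at week 4 against week 0. The part of this in the shares called and not overlapping was not tested.

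At week 4 against week 0, 20 members rose, 7 fell and 8 were not called, where 33.9% of all tested genes were called higher and 33.7% lower. The median log2 fold change was 0.28 over the members and 0.00 over all genes, and 2 members (5.71%), OPTN and WIPI1, were called and differed by more than 2-fold, against 19.7% of all genes. WIPI1 passed 2-fold by little (2.005-fold). Without week 0 replicates 1 and 4 its log2 fold change was 0.95, under 2-fold. Between the treated times, 3 members were higher at week 4 than at week 1 and 18 were lower, where 21.8% of all tested genes were called higher and 18.6% lower. In that comparison the median log2 fold change was -0.23 over the members and 0.01 over all genes, and no member was called with a difference over 2-fold, against 4.13% of all genes. Tested against a minimum fold of 1.5, 4422 of the 16891 tested genes were called in either direction at week 1 against week 0. Of the members, 10 were higher and 0 lower. At week 4 against week 0, where 4220 genes were called, 4 members were higher and 0 lower. On library totals without TMM scaling, 20 were higher and 7 lower at week 1, and 16 higher and 11 lower at week 4, with medians of 0.21 and 0.08 over the members and -0.18 and -0.19 over all genes. The comparisons of week 1 and week 4 with week 0 share the same untreated libraries, so their values are given side by side and their likeness is not a result. Without week 0 replicates 1 and 4, 25 members were higher and 5 lower at week 1, and 23 higher and 7 lower at week 4. The files fell into a class with a gene length column (week 0 replicates 5 and 6, week 1 replicates 1 and 2) and one without. Within the class with gene length, 25 members were higher and 5 lower at week 1 than at week 0. Within the other class 24 were higher and 3 lower at week 1, and 20 higher and 6 lower at week 4. All week 4 libraries belong to the class without gene length.

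**Figure D1:**
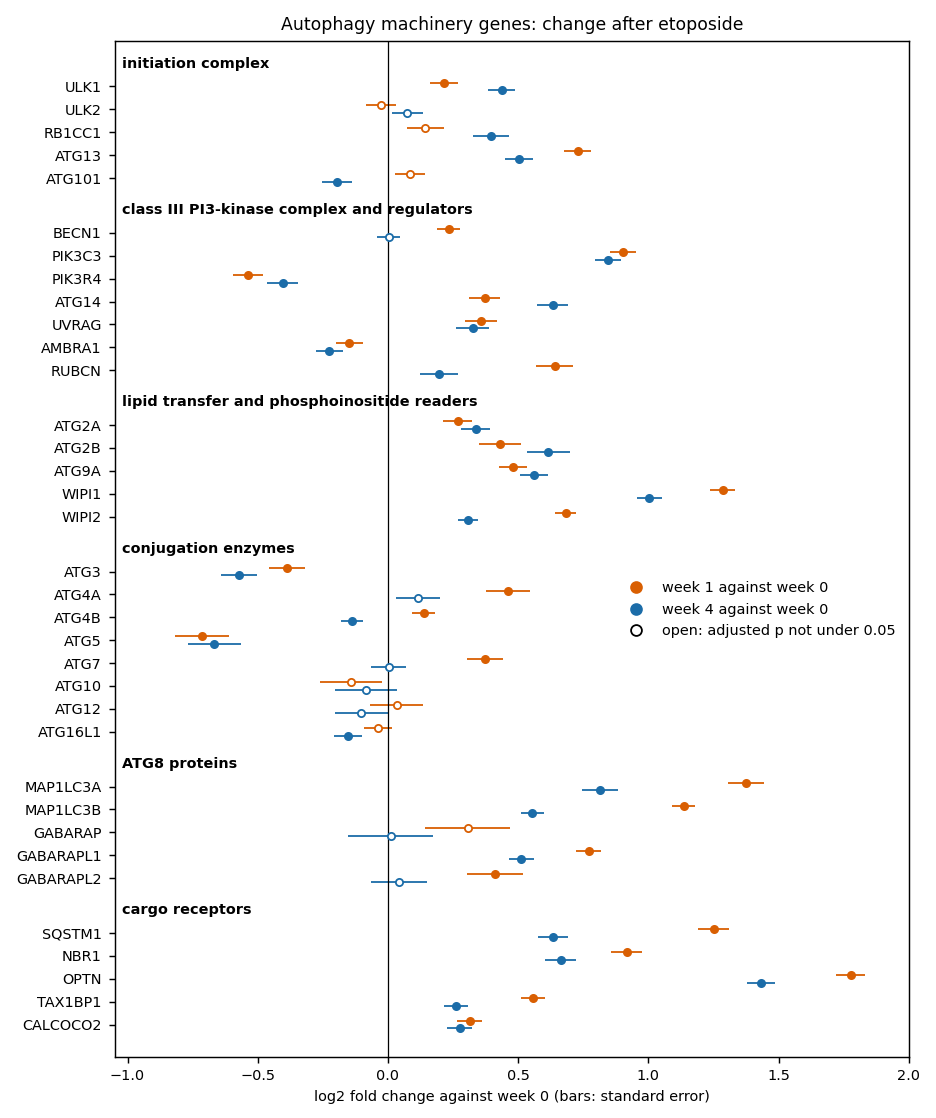
Log2 fold change (x axis) of each of the 35 members (y axis, by role) at week 1 (orange) and week 4 (blue) against week 0, with standard errors as bars and filled points for genes with an adjusted p under 0.05. All 5 cargo receptors and all 5 genes of the lipid transfer and phosphoinositide reader group lie to the right of 0 at both times on this TMM scale, while the 8 conjugation enzymes lie on both sides.

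The 35 members fell into 7 patterns of calls against week 0. At both times 19 were higher and 4 (PIK3R4, AMBRA1, ATG3 and ATG5) were lower. BECN1, ATG4A, ATG7 and GABARAPL2 were called higher at week 1 only, and RB1CC1 was called higher at week 4 only. ATG101 and ATG16L1 were called lower at week 4 only. ATG4B was called higher at week 1 and lower at week 4. ULK2, ATG10, ATG12 and GABARAP were called in neither comparison.

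In the ULK1 initiation complex, 2 of the 5 members rose (40%) at week 1 and none fell. At week 4, 3 rose (60%) and 1 fell (20%). Of all tested genes, 32.9% were called higher and 34.0% lower at week 1, and 33.9% and 33.7% at week 4. The week 1 share that rose was near that of all tested genes. ATG13, the adaptor that holds the kinase in the complex, changed most. It was measured at 57.1, 70.8, 63.0, 71.8 and 69.8 CPM in week 0 replicates 1, 3, 4, 5 and 6. Its lowest, median and highest values were 108, 110.1 and 113 CPM at week 1, and 89.0, 93.7 and 99.3 CPM at week 4. Every treated library lay above every untreated one. The log2 fold change of ATG13 was 0.73 ± 0.05 (SE) at week 1 (edgeR adjusted p = 4.3e-11) and 0.50 ± 0.05 at week 4 (adjusted p = 2.2e-08).

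ULK1, the kinase itself, rose further with time. It averaged 52.0 ± 4.61 CPM at week 0 (SD, n = 5), 60.4 ± 1.79 at week 1 and 70.4 ± 2.59 at week 4 (n = 6 each). Its log2 difference between week 4 and week 1 was 0.22 ± 0.05 (edgeR adjusted p = 0.00099). The week 1 call of ULK1 against week 0 (0.22, adjusted p = 0.00095) was lost on library totals (0.05, adjusted p = 0.40). RB1CC1, the scaffold also called FIP200, had a log2 fold change of 0.14 ± 0.07 at week 1, which was not called here but was with DESeq2 (0.16, adjusted p = 0.046), and rose by 0.40 ± 0.07 at week 4 (adjusted p = 3.4e-05). ATG101, which stabilises ATG13, was 0.20 lower on the log2 scale at week 4 (-0.20 ± 0.06, adjusted p = 0.0045), a call lost with upper-quartile scaling (-0.13, adjusted p = 0.058). ULK2, the related kinase, had log2 fold changes of -0.03 and 0.07 at week 1 and week 4 and was not called. On library totals ULK2 was called lower at week 1 (-0.19, adjusted p = 0.0051), and with upper-quartile scaling higher at week 4 (0.14, adjusted p = 0.029).

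In the class III phosphatidylinositol 3-kinase complex and its regulators, 5 of 7 members rose (71.4%) and 2 fell (28.6%) at week 1. At week 4, 4 rose (57.1%) and 2 fell (28.6%). Among all tested genes, 32.9% were called higher and 34.0% lower at week 1, and 33.9% and 33.7% at week 4. The catalytic subunit PIK3C3 (VPS34) and its regulatory subunit PIK3R4 (VPS15) changed in opposite directions. PIK3C3 had 40.0, 39.0, 47.4, 39.0 and 38.1 CPM in the week 0 libraries. At week 1 its lowest, median and highest values were 73.0, 76.2 and 78.5 CPM, and at week 4 they were 70.8, 73.1 and 75.3 CPM. The treated libraries all lay above the untreated ones, and the log2 fold change was 0.90 ± 0.05 at week 1 and 0.84 ± 0.05 at week 4 (edgeR adjusted p = 3.7e-13 and 1.4e-12).

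PIK3R4 averaged 32.0 ± 2.57 CPM at week 0 (SD, n = 5), 22.1 ± 0.727 at week 1 and 24.2 ± 1.66 at week 4 (n = 6 each), and no treated library reached the lowest untreated one. Its log2 fold change was -0.54 ± 0.06 at week 1 and -0.41 ± 0.06 at week 4 (edgeR adjusted p = 3.3e-08 and 2.2e-06). Week 4 and week 1 did not differ beyond the threshold for either subunit (adjusted p = 0.34 for PIK3C3 and 0.066 for PIK3R4). In a fit of only the groups compared both passed it (-0.08, adjusted p = 0.038 for PIK3C3 and 0.12, adjusted p = 0.044 for PIK3R4). PIK3R4 passed it as well without week 0 replicates 1 and 4 (0.13, adjusted p = 0.022).

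BECN1 (Beclin 1), the scaffold of the complex, had a log2 fold change of 0.23 ± 0.04 at week 1 (edgeR adjusted p = 6.5e-05) and 0.00 ± 0.04 at week 4 (adjusted p = 0.97). On library totals the week 1 call of BECN1 was lost (0.07, adjusted p = 0.13) and it was called lower at week 4 (-0.19, adjusted p = 0.00031). CNTD1 and PSME3 on the opposite strand overlap 17.1% of the exonic bases of BECN1. The subunits that set where the complex acts were both higher at both times. ATG14, which directs it to sites of autophagosome formation, had log2 fold changes of 0.37 ± 0.06 and 0.63 ± 0.06 at week 1 and week 4 (adjusted p = 8.6e-06 and 3.1e-09), and was higher at week 4 than at week 1 (0.26 ± 0.06, adjusted p = 0.00062). UVRAG, which directs it to endosomes, had 0.36 ± 0.06 and 0.33 ± 0.06, the week 4 call being lost on library totals (0.13, adjusted p = 0.062).

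RUBCN (Rubicon), a protein that restrains the UVRAG form of the complex, rose by 0.64 ± 0.07 on the log2 scale at week 1 (edgeR adjusted p = 6.3e-08) and by 0.20 ± 0.07 at week 4 (adjusted p = 0.021). Without week 0 replicates 1 and 4 the week 4 value of RUBCN was 0.12 and was not called (adjusted p = 0.18), as was the case without replicate 1 alone (0.15, adjusted p = 0.072), without week 4 replicate 1 (0.16, adjusted p = 0.055), with no filter (0.18, adjusted p = 0.052) and on library totals (0.00, adjusted p = 0.98). AMBRA1, which links Beclin 1 to the ULK1 kinase, had -0.15 ± 0.05 at week 1 and -0.23 ± 0.05 at week 4 (adjusted p = 0.018 and 0.00073). The week 1 call of AMBRA1 was lost with upper-quartile scaling (-0.08, adjusted p = 0.20), in files without gene length (-0.10, adjusted p = 0.22) and without week 0 replicate 3 or 5 (-0.13, adjusted p = 0.051 each), and was kept without replicates 1 and 4 (-0.23).

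All 5 genes of the lipid transfer and phosphoinositide reader group rose at both times, with no overlap between treated and untreated libraries. Of all tested genes, 32.9% were called higher at week 1 and 33.9% at week 4. Libraries did not overlap for 48.7% of all tested genes at week 1 and 49% at week 4. WIPI1, a reader of phosphatidylinositol 3-phosphate on the forming membrane, had the largest change among them. The week 0 libraries had 28.8, 31.8, 28.9, 32.6 and 30.9 CPM. The lowest, median and highest values were 70.9, 73.9 and 78.8 CPM at week 1 and 58.7, 61.0 and 65.5 CPM at week 4. WIPI1 was thus 2.44-fold higher at week 1 and 2.005-fold higher at week 4 than at week 0 (log2 1.29 ± 0.05 and 1.00 ± 0.05, edgeR adjusted p = 2.5e-16 and 2.1e-14). In GENCODE 29, 24.3% of the exonic bases of WIPI1 are overlapped by ARSG on the opposite strand, and whether the counting used strand is not given in the sources used here.

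WIPI2, which recruits the ATG16L1 complex, rose by 0.68 ± 0.04 at week 1 and by 0.31 ± 0.04 at week 4 on the log2 scale (edgeR adjusted p = 1.3e-12 and 6.6e-07). It was lower at week 4 than at week 1 (-0.38 ± 0.04, adjusted p = 7.8e-08). The lipid transfer proteins ATG2A and ATG2B and the scramblase ATG9A had log2 fold changes of 0.27, 0.43 and 0.48 at week 1 and 0.34, 0.62 and 0.56 at week 4, all called. At week 4 against week 1 none of these 3 was called (adjusted p = 0.32, 0.059 and 0.22). ATG2B was called higher there in a fit of only the groups compared (0.17, adjusted p = 0.0094). The same held for ATG2B without week 0 replicates 1 and 4 (0.185, adjusted p = 0.0037). The week 1 value of ATG2B was 0.29 without week 0 replicates 1 and 4, and the week 1 call of ATG2A was lost on library totals (0.11, adjusted p = 0.092).

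The conjugation enzymes did not move as a group. At week 1, 3 of the 8 rose (37.5%) and 2 fell (25%), near the 32.9% and 34.0% of all tested genes. At week 4 none rose and 4 fell (50%), against 33.9% and 33.7% of all tested genes. ATG5, which forms the conjugate with ATG12 that acts as the ligase for ATG8 proteins, fell most. It had 45.8, 32.9, 48.5, 30.7 and 28.9 CPM in week 0 replicates 1, 3, 4, 5 and 6. Its lowest, median and highest values were 21.7, 22.9 and 23.7 CPM at week 1 and 22.1, 23.3 and 25.8 CPM at week 4. All treated libraries lay below all untreated ones, and replicates 1 and 4 were the highest of the untreated libraries.

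The log2 fold change of ATG5 was -0.71 ± 0.10 at week 1 and -0.67 ± 0.10 at week 4 (edgeR adjusted p = 2.1e-06 and 5.3e-06). Without week 0 replicates 1 and 4 it was -0.44 and -0.39, and the gene stayed called at both times. ATG3, the enzyme that transfers ATG8 proteins to the lipid, fell by 0.39 ± 0.07 at week 1 and by 0.57 ± 0.07 at week 4 (adjusted p = 3.4e-05 and 1.7e-07), or -0.24 and -0.42 without those 2 libraries.

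ATG12 shows how far the 2 untreated libraries matter. It had 104 and 87.8 CPM in week 0 replicates 1 and 4, and 67.5, 60.5 and 58.6 CPM in replicates 3, 5 and 6. The week 1 libraries ran from 74.4 to 80.4 CPM and the week 4 libraries from 69.2 to 72.0 CPM, between the 2 sets of untreated values. With all 5 untreated libraries the log2 fold change of ATG12 was 0.03 ± 0.10 at week 1 and -0.10 ± 0.10 at week 4 (edgeR adjusted p = 0.78 and 0.39). Without replicates 1 and 4 it was 0.31 and 0.18, both called higher (adjusted p = 4.4e-07 and 0.00057). In files without gene length, which include replicates 1, 3 and 4 of week 0, ATG12 was called lower at week 4 (-0.30, adjusted p = 0.0029), as it was on library totals (-0.295, adjusted p = 0.015). At week 4 against week 1 ATG12 was not called (-0.14, adjusted p = 0.28), though the libraries did not overlap. Without week 0 replicates 1 and 4 it was called lower there (-0.14, adjusted p = 0.0016).

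ATG7, the activating enzyme of both reactions, had a log2 fold change of 0.37 ± 0.07 at week 1 (edgeR adjusted p = 4.8e-05) and 0.00 ± 0.07 at week 4. VGLL4 on the opposite strand overlaps 18.1% of the exonic bases of ATG7. Without the 2 libraries ATG7 was called higher at both times (0.52 and 0.15), and on library totals it was called lower at week 4 (-0.19, adjusted p = 0.016). ATG4A, a protease that trims ATG8 proteins, had 0.46 ± 0.09 and 0.12 ± 0.09, and likewise was called at both times without them (0.62 and 0.28). ATG4B, the main protease of this family, was the only member called in opposite directions: it averaged higher at week 1 (0.14 ± 0.04, adjusted p = 0.0083) and lower at week 4 (-0.14 ± 0.04, adjusted p = 0.0074) than at week 0.

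The week 4 and week 1 libraries of ATG4B did not overlap (44.8 to 47.7 CPM at week 4 and 54.2 to 58.1 CPM at week 1), and their log2 difference was -0.28 ± 0.04 (edgeR adjusted p = 1.4e-05). Its week 1 rise was not present on library totals without TMM scaling (-0.03, adjusted p = 0.62). Its lower call at week 4 was lost with upper-quartile scaling (-0.07, adjusted p = 0.16) and in files without gene length (-0.12, adjusted p = 0.067), so the opposite calls rest on the scaling and the libraries used. ATG16L1, which brings the ATG12 and ATG5 conjugate to the membrane, fell at week 4 (-0.15 ± 0.05, adjusted p = 0.017), and without the 2 libraries it was called lower at week 1 as well (-0.12, adjusted p = 0.034). The week 4 call of ATG16L1 was lost with upper-quartile scaling (-0.08, adjusted p = 0.17), with a file class term (-0.12, adjusted p = 0.073), in files without gene length (-0.07, adjusted p = 0.29) and without week 0 replicate 5 or 6 (-0.12 each, adjusted p = 0.056 and 0.062). Between week 4 and week 1 ATG16L1 was not called (-0.11, adjusted p = 0.083), but without week 0 replicates 1 and 4 it was called lower (-0.11, adjusted p = 0.021). ATG10, the enzyme that joins ATG12 to ATG5, was the least abundant of the group at 7.14, 6.47 and 6.73 CPM at week 0, week 1 and week 4 and was not called. On library totals ATG10 was called lower at both times (-0.31 and -0.28, adjusted p = 0.031 and 0.048).

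**Figure D2:**
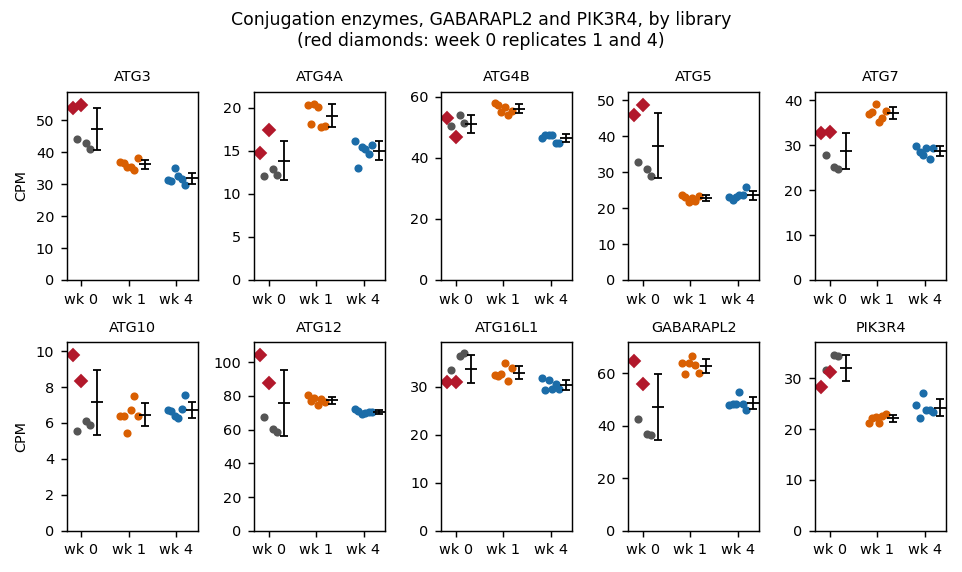
CPM (y axis) in every library of the 8 conjugation enzymes, of GABARAPL2 and of PIK3R4 at week 0, week 1 and week 4 (x axis), with the mean and SD in black and week 0 replicates 1 and 4 as red diamonds. The diamonds are the highest untreated values for ATG3, ATG4A, ATG5, ATG7, ATG10, ATG12 and GABARAPL2, and they widen the week 0 SD of these genes.

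Among the 5 ATG8 proteins, 4 rose at week 1 (80%) and 3 at week 4 (60%), and none fell. For all tested genes, 32.9% were called higher and 34.0% lower at week 1, and 33.9% and 33.7% at week 4. MAP1LC3B, the LC3 protein most used to follow autophagosomes, had 91.5, 90.8, 106, 89.9 and 89.1 CPM in the week 0 libraries. Its lowest, median and highest values were 199, 204 and 215 CPM at week 1 and 136, 137 and 139 CPM at week 4. The 3 groups did not overlap, and the log2 fold change was 1.14 ± 0.05 at week 1 and 0.55 ± 0.04 at week 4 (edgeR adjusted p = 7.7e-16 and 2.2e-10).

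The level of MAP1LC3B was lower at week 4 than at week 1 by a log2 difference of -0.58 ± 0.04 (edgeR adjusted p = 3.8e-10). MAP1LC3B2, a near-identical copy, had a log2 fold change of 1.06 at week 1 and 0.57 at week 4, and how reads shared by the 2 genes were counted is not given in the sources used here.

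MAP1LC3A, another LC3 protein at a lower level, had 9.27, 7.98, 9.58, 8.76 and 7.98 CPM at week 0. It ran from 20.7 through a median of 22.6 to 23.9 CPM at week 1 and from 13.4 through 15.9 to 16.4 CPM at week 4. Again the 3 groups did not overlap, with log2 fold changes of 1.37 ± 0.07 and 0.81 ± 0.07 (edgeR adjusted p = 4.5e-14 and 4.4e-10) and a difference of -0.56 ± 0.06 between week 4 and week 1.

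GABARAPL1, a member of the GABARAP subfamily, had 95.14, 100.4, 103.7, 103.2 and 103.0 CPM at week 0. Its lowest, median and highest values were 165, 172 and 185 CPM at week 1 and 130.2, 144 and 159 CPM at week 4. It too separated all 3 groups, with log2 fold changes of 0.77 ± 0.05 and 0.51 ± 0.05 (edgeR adjusted p = 3.1e-12 and 3.5e-09). GABARAPL2 (GATE-16) had 64.7, 42.3, 55.7, 36.9 and 36.4 CPM at week 0, with replicates 1 and 4 the highest. It ran from 59.7 through 63.3 to 66.6 CPM at week 1 and from 46.0 through 48.2 to 52.8 CPM at week 4, overlapping week 0 at both times.

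The log2 fold change of GABARAPL2 was 0.41 ± 0.11 at week 1 (edgeR adjusted p = 0.0019) and 0.04 ± 0.11 at week 4 (adjusted p = 0.75). Without week 0 replicates 1 and 4 it was 0.70 and 0.33, both called, while in files without gene length the week 1 call was lost (0.21, adjusted p = 0.053). GABARAP, the founding member, was listed at 0.923, 1.11, 1.30, 1.10 and 1.02 CPM at week 0. It had 0.931 to 1.78 CPM at week 1 and 0.833 to 1.33 CPM at week 4, the lowest level per gene length of the 35 members. GABARAP was not called against week 0, except at week 1 with upper-quartile scaling (0.38, adjusted p = 0.043) or without week 1 replicate 3 (0.39, adjusted p = 0.031). Without that library it was also called lower at week 4 than at week 1 (-0.38, adjusted p = 0.047). In GENCODE 29 its exons are overlapped by a gene on the same strand (AC120057.2) and by one on the opposite strand (AC120057.3), neither of which is named in the count tables.

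Within the ATG8 family, counted as CPM per kb of gene length, GABARAPL1 took 37.3 ± 3.45% of the family at week 0, 34.2 ± 0.837% at week 1 and 38.3 ± 1.29% at week 4 (SD). MAP1LC3B took 27.6 ± 1.26%, 32.7 ± 0.611% and 29.4 ± 1.14% at week 0, week 1 and week 4. MAP1LC3A took 11.2 ± 0.43%, 15.8 ± 0.841% and 14.3 ± 0.632%, and GABARAPL2 took 23.1 ± 4.53%, 16.8 ± 0.803% and 17.4 ± 0.744%. GABARAP took under 1% of the family in every group mean. How reads in the part of its exons shared with other genes were counted is not given in the sources used here. All the family shares depend on this. The week 0 shares without replicates 1 and 4 were 39.7% for GABARAPL1, 28.1% for MAP1LC3B, 11.3% for MAP1LC3A and 20.1% for GABARAPL2 (n = 3).

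All 5 cargo receptors rose at both times, where 32.9% and 33.9% of all tested genes were called higher at week 1 and week 4. On library totals the week 4 calls of TAX1BP1 (0.07, adjusted p = 0.19) and CALCOCO2 (0.08, adjusted p = 0.12) were lost. OPTN (optineurin), which binds ubiquitinated mitochondria and bacteria, had the largest change of all 35 members. It had 69.7, 66.3, 65.1, 63.1 and 65.7 CPM in the week 0 libraries. Its lowest, median and highest values were 220.4, 226 and 231 CPM at week 1 and 148, 182 and 191 CPM at week 4. The 3 groups did not overlap, and OPTN was 3.43-fold higher at week 1 and 2.70-fold higher at week 4 than at week 0 (log2 1.78 ± 0.05 and 1.43 ± 0.05, edgeR adjusted p = 1e-17 and 4e-16).

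SQSTM1 (p62), the receptor that gathers ubiquitinated proteins, had 169, 182, 172, 188 and 178 CPM at week 0. The lowest, median and highest libraries had 401, 425 and 442 CPM at week 1 and 227, 286 and 302 CPM at week 4. The groups were again apart, with log2 fold changes of 1.251 ± 0.06 and 0.64 ± 0.06 (edgeR adjusted p = 2e-14 and 2.4e-09). The log2 difference of SQSTM1 at week 4 against week 1 was -0.62 ± 0.06 (adjusted p = 1.1e-08). This drop was the largest of any member, but those of MAP1LC3B (-0.58 ± 0.04) and MAP1LC3A (-0.56 ± 0.06) lay within about an SE of it. Genes on the opposite strand, mainly MRNIP, overlap 22% of the exonic bases of SQSTM1.

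NBR1, a receptor that acts with p62, had 96.9, 122, 111, 124 and 132 CPM at week 0. It ran from 209 through 223 to 228 CPM at week 1 and from 173 through 186 to 194 CPM at week 4, with no overlap between the groups. Its log2 fold changes were 0.92 ± 0.06 and 0.66 ± 0.06 (edgeR adjusted p = 6.6e-12 and 1.8e-09). TAX1BP1, which also binds ubiquitin, had 114, 106, 127, 108 and 105 CPM at week 0, and 157 to 170.1 CPM (median 166) at week 1.

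At week 4 TAX1BP1 had 129.7 to 136 CPM (median 134), and its log2 fold changes were 0.56 ± 0.05 at week 1 and 0.26 ± 0.05 at week 4 (edgeR adjusted p = 4.4e-10 and 3.6e-05). CALCOCO2 (NDP52), a receptor for bacteria and damaged mitochondria, had 71.8, 65.8, 81.0, 68.5 and 67.7 CPM at week 0. It ran from 86.8 through 87.9 to 89.6 CPM at week 1 and from 80.7 through 86.4 to 89.4 CPM at week 4, where the lowest library lay just below the highest untreated one. CALCOCO2 had log2 fold changes of 0.31 ± 0.05 and 0.28 ± 0.05, and was the only cargo receptor not called lower at week 4 than at week 1 (-0.04 ± 0.05, adjusted p = 0.56).

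**Figure D3:**
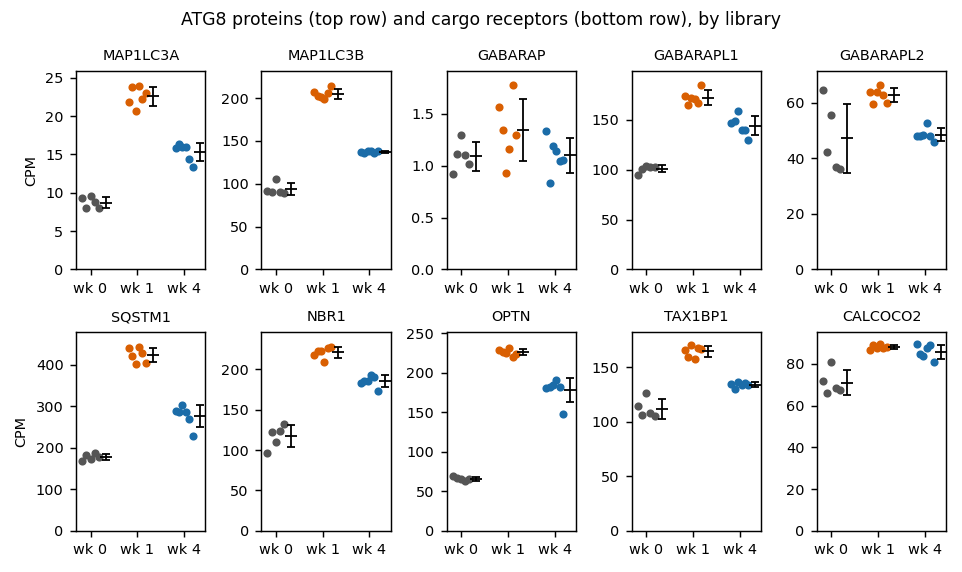
CPM (y axis) in every library of the 5 ATG8 proteins (top row) and the 5 cargo receptors (bottom row) at week 0, week 1 and week 4 (x axis), with the mean and SD in black. For MAP1LC3A, MAP1LC3B, GABARAPL1, SQSTM1, NBR1, OPTN and TAX1BP1 the week 1 libraries are the highest and the week 4 libraries lie between them and week 0.

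Summed over all 35 members, the level per gene length was 277 ± 6.18 CPM per kb at week 0, 452 ± 2.88 at week 1 and 371 ± 12.4 at week 4 (SD over libraries). The cargo receptors took the most of it, with 71.1 ± 1.47 CPM per kb at week 0, 154.9 ± 1.87 at week 1 and 118 ± 7.30 at week 4. The ATG8 proteins summed to 67.3 ± 5.21, 124 ± 2.60 and 92.8 ± 3.55 CPM per kb at week 0, week 1 and week 4. The lipid transfer and reader genes summed to 32.4 ± 2.24, 55.4 ± 1.14 and 49.9 ± 1.07 CPM per kb at those times.

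The initiation complex had summed levels of 35.04 ± 1.95, 43.8 ± 0.812 and 43.6 ± 0.678 CPM per kb at week 0, week 1 and week 4, and the phosphatidylinositol 3-kinase group had 25.7 ± 0.790, 28.95 ± 0.722 and 27.8 ± 0.966. The conjugation enzymes had 45.5 ± 5.64, 44.5 ± 0.820 and 39.0 ± 0.694 CPM per kb, with week 0 libraries from 40.3 to 52.3. The week 0 sum without replicates 1 and 4 was 41.4 ± 0.941 CPM per kb for the conjugation enzymes, 63.6 ± 0.874 for the ATG8 proteins and 273 ± 2.22 for all members (n = 3). At week 0 the highest single levels per gene length were those of GABARAPL1 (24.9 ± 0.881 CPM per kb) and SQSTM1 (23.6 ± 1.03), which differ by about the spread between libraries. At week 1 SQSTM1 (56.1 ± 2.29) was followed by OPTN (43.98 ± 0.762) and GABARAPL1 (42.6 ± 1.77), where OPTN and GABARAPL1 differ by less than their spread. At week 4 SQSTM1 (36.6 ± 3.46), GABARAPL1 (35.6 ± 2.38) and OPTN (34.7 ± 2.99) lie within each other's spread. OPTN ranked 6 of 35 at week 0 and 2 at week 1.

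**Figure D4:**
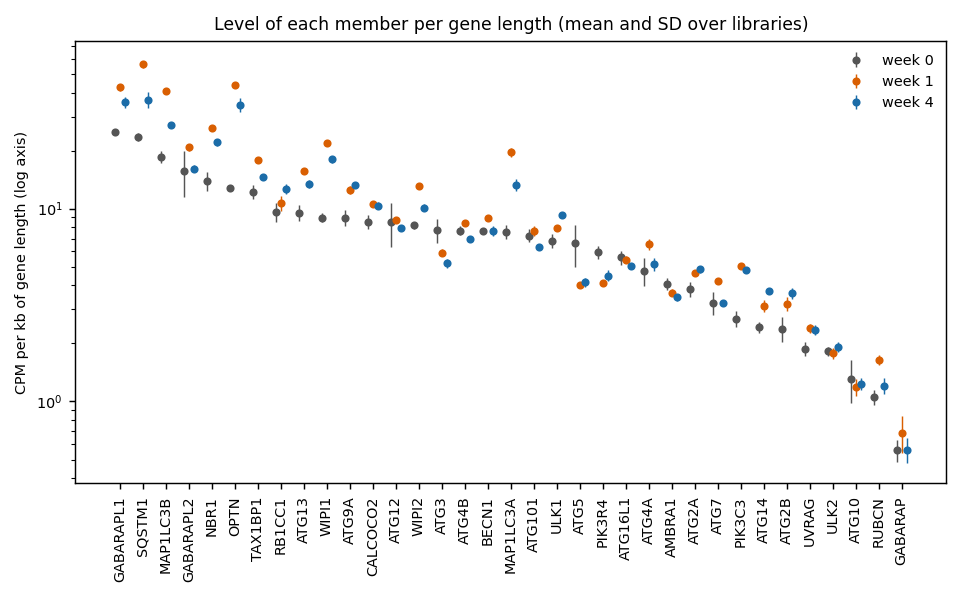
Mean level of each of the 35 members in CPM per kb of gene length (y axis, log scale) with the SD over libraries, at week 0 (grey), week 1 (orange) and week 4 (blue), in order of the week 0 level (x axis). The week 0 levels span 0.559 CPM per kb for GABARAP to 24.9 for GABARAPL1.

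Genes around the members were taken as 5 lists by known role. For comparison, 32.9% of all tested genes were called higher and 34.0% lower at week 1, and 33.9% and 33.7% at week 4. Percentages below are of the tested genes of a list. Of 27 other core autophagy genes, 25 were tested. In this list 17 rose (68%) and 5 fell (20%) at week 1, and 16 rose (64%) and 7 fell (28%) at week 4. The median log2 fold changes were 0.39 and 0.26. Without week 0 replicates 1 and 4, where 26 of the list were tested, these counts were 17 and 3 at week 1, and 17 and 5 at week 4. EPG5 and ATG16L2 were among the largest rises. EPG5, a tether between autophagosomes and lysosomes, averaged 96.8 CPM at week 0, 235 at week 1 and 210.0 at week 4 (log2 1.28 ± 0.07 and 1.12 ± 0.07). ATG16L2, a paralog of ATG16L1, had log2 fold changes of 0.86 and 1.15. ATG9B, the paralog of ATG9A, was called higher at both times at levels of 0.0792, 0.860 and 1.42 CPM at week 0, week 1 and week 4. The protease ATG4C (-0.52 and -0.29), the scramblase VMP1 (-0.30 and -0.52) and the protease ATG4D (-0.25 and -0.48) fell at both times. Without those 2 libraries VMP1 was not called at week 1 (-0.02, adjusted p = 0.70) and ATG4C was not called at week 4 (-0.14, adjusted p = 0.16).

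Of the 19 organelle and other selective receptors, 13 rose (68.4%) and 2 fell (10.5%) at week 1, and 14 rose (73.7%) and 3 fell (15.8%) at week 4. BNIP3, a mitophagy receptor, averaged 119 CPM at week 0, 403 at week 1 and 427 at week 4 (log2 1.76 ± 0.05 and 1.84 ± 0.05, edgeR adjusted p = 2.6e-18 and 1.5e-18). RETREG1, a receptor for endoplasmic reticulum, was called higher at week 4 at under 1 CPM in every group mean, and its fitted fold change is not given. That call was lost without week 0 replicates 1 and 4 (adjusted p = 0.055). FUNDC1, a mitophagy receptor of the outer membrane, fell (-0.94 ± 0.10 and -0.84 ± 0.10), as did PHB2 of the inner membrane (-0.85 and -0.68). NCOA4, the ferritin receptor, fell at week 4 (-0.16, adjusted p = 0.016), but was not called without week 0 replicates 1 and 4 (-0.05, adjusted p = 0.19). BNIP3L and PINK1, named after their values were seen, also rose at both times (BNIP3L log2 1.54 and 1.57, PINK1 1.31 and 0.94).

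The next list held 26 genes of mTORC1, the kinase complex that restrains ULK1 when nutrients suffice, and of its inputs. Of these, 14 rose (53.8%) and 4 fell (15.4%) at week 1, and 15 rose (57.7%) and 7 fell (26.9%) at week 4. SESN3, a sestrin that restrains mTORC1, averaged 9.20 CPM at week 0, 33.5 at week 1 and 59.4 at week 4 (log2 1.86 ± 0.07 and 2.69 ± 0.08, edgeR adjusted p = 8.2e-16 and 2.9e-18). DEPTOR, an inhibitor bound to the kinase, had log2 fold changes of 1.16 and 1.97 at levels of 0.814, 1.83 and 3.19 CPM. RRAGD was called higher at week 4 at under 1 CPM in every group mean. RHEB, the small GTPase that activates mTORC1, fell (-0.53 ± 0.08 and -0.75 ± 0.08), as did TBC1D7 (-0.60 and -0.67), the third subunit of the TSC complex, and LAMTOR4 (-0.41 and -0.56), a subunit of the lysosomal anchor. LAMTOR4, without week 0 replicates 1 and 4, was called at neither time (0.03 and -0.12), and TBC1D7 stayed called at -0.29 and -0.37. The kinase gene MTOR was not called (0.07 and -0.04), but without those 2 libraries it was called lower at week 4 (-0.18, adjusted p = 0.0043). The counts of this list without them were 17 higher and 3 lower at week 1, and 16 higher and 5 lower at week 4.

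Another list had 8 tested genes of AMPK, the energy-sensing kinase that activates ULK1, and its upstream kinases. Of these, 4 rose (50%) and 1 fell (12.5%) at week 1, and 3 rose (37.5%) and 3 fell (37.5%) at week 4. The week 4 shares were near those of all tested genes. The catalytic subunits moved apart: PRKAA2 rose (0.79 ± 0.13 and 1.13 ± 0.13) at 4.25, 7.35 and 9.27 CPM, and PRKAA1 fell (-0.46 ± 0.06 and -0.47 ± 0.06) at 116, 83.9 and 83.4 CPM at week 0, week 1 and week 4. PRKAB2 (0.61 and 0.67) and CAMKK2 (0.41 and 0.29) rose at both times. PRKAG2 was called higher at week 1 (0.28) and lower at week 4 (-0.27), where the lower call was lost without week 0 replicates 1 and 4 (-0.07, adjusted p = 0.31), and PRKAB1 fell at week 4 (-0.25).

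Of the 14 transcription factors that act on autophagy and lysosome genes, 6 rose (42.9%) and 4 fell (28.6%) at week 1, near the shares of all tested genes. At week 4, 9 rose (64.3%) and 2 fell (14.3%). FOXO4 (log2 1.14 ± 0.09 and 1.33 ± 0.09) and DDIT3 (1.06 ± 0.11 and 1.30 ± 0.11) rose, and TFEC was called at under 1 CPM in every group mean. NFE2L2, the factor NRF2 that binds antioxidant response elements, fell (-0.66 ± 0.05 and -0.29 ± 0.05, edgeR adjusted p = 2.4e-10 and 5.1e-05). ZKSCAN3, known as a repressor of autophagy genes, fell at week 1 (-0.50) and was not called at week 4 (-0.08). TFEB, named after its values were seen, rose at both times (0.65 ± 0.09 and 0.74 ± 0.09) at 3.90, 6.11 and 6.53 CPM at week 0, week 1 and week 4. Its family did not move as a whole. TFE3 rose at both times (0.50 and 0.185), while MITF was not called at week 1 (-0.13) and fell at week 4 (-0.26). Without week 0 replicates 1 and 4 MITF was called lower at both times (-0.19 and -0.315). TFE3 and MITF were also named after their values were seen.

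**Figure D5:**
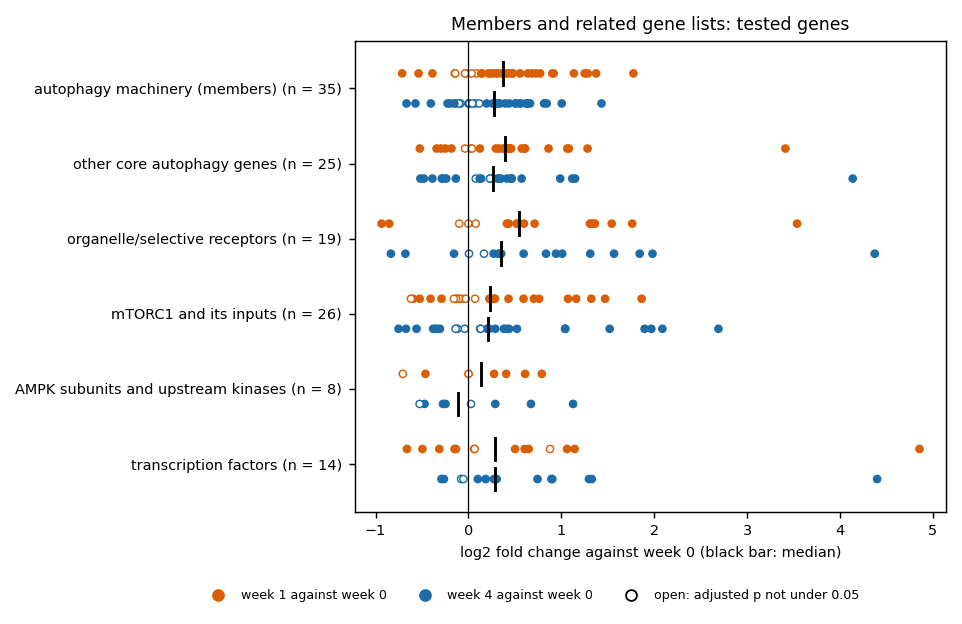
Log2 fold change (x axis) at week 1 (orange) and week 4 (blue) against week 0 of the tested genes of the 35 members and of 5 related lists (y axis), filled where the adjusted p was under 0.05, with the median as a black bar. The median of the members is 0.37 at week 1 and 0.28 at week 4, and every list holds genes on both sides of 0.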

How the data were processed

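Bulk RNA-seq covered 17 libraries of IMR-90 cells, grouped by the labels into week 0 (n = 5), week 1 (n = 6) and week 4 (n = 6). The authors deposited a table of raw gene counts per library, by gene symbol. In 4 tables the authors also deposited a gene length column (another unit, with no description), which served here to give levels per kb. HISAT2 2.0.5.2, featureCounts 1.4.6 and the build mm10 are named per the submitters' processing notes. Because the symbols are human, the build is unclear. Neither the strand setting nor the handling of multimapping reads is given in these sources.

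A nameless entry (0.221% to 0.289% of counts) was dropped. The count test was edgeR 4.0.16 (R 4.3.3), a quasi-likelihood fit of group means to all libraries, after filterByExpr (16891 genes) and TMM scaling (factors 0.938 to 1.11), with Benjamini-Hochberg adjustment and a threshold of 0.05. The SE is the log2 fold change over the square root of F. Gene levels, with those of CDKN1A and LMNB1, are CPM on TMM-scaled sizes. Sums and group means of cell type markers are CPM on library totals. Members, lists, named genes and motifs were chosen with earlier results of these data known. Library values are given for the most changed member of each role group and for all ATG8 proteins and cargo receptors, and up to 3 genes called higher and 3 called lower are named per list, except 2 genes not reported here. Replicates of a group differed beyond sampling noise (chi-square per gene at least 7.44 over 40 pairs). DESeq2 1.42.0, limma-voom (limma 3.58.1), other scalings and filters, a minimum fold of 1.5, file class and left-out libraries were alternatives.

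On counts simulated for week 1 against week 0, with changed genes drawn from all tested genes, the test recovered 80% of 100 genes changed 2-fold and 41% of 100 changed 1.25-fold. A repeat added after that result, with changed genes that averaged at least 1 CPM, as all members do, recovered 100% and 70%. Of unchanged genes, 0.0659% and 0.0899% were called in these simulations. Far fewer genes were changed there than were called in the data at week 1 (32.9% higher and 34.0% lower). The Benjamini-Hochberg cutoff shifts with the number of genes called, so the simulated rates do not carry over to the data.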

Additional observations from a re-analysis of the deposited data

Results flagged for a closer look

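In each group of 5 or 6 libraries the highest and lowest value of each member were compared with the rest by Dixon's test, over 105 sets of libraries, and 7 sets held a library far from the others. Chance flags about 1 in 20. At week 0, replicate 4 was low for ULK1 (43.96 CPM, the others 53.07 to 55.8) and high for PIK3C3 (47.43 CPM, the others 38.05 to 40.02) and MAP1LC3B (105.9 CPM, the others 89.05 to 91.51). Week 0 replicate 6 was low for ATG101 (20.08 CPM, the others 23.58 to 24.67). At week 4, replicate 6 was low for OPTN (147.7 CPM, the others 180.7 to 191.4) and high for ATG2B (59.03 CPM, the others 49.9 to 51.56), and replicate 4 was high for GABARAPL2 (52.8 CPM, the others 46.01 to 48.39).

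ATG4B was called in opposite directions against week 0 at the 2 treated times, and its log2 difference between week 4 and week 1 was -0.275 (edgeR adjusted p = 1.4e-05). Other differences between the treated times are given as a comparison of their own and were not listed again here.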

How the results depend on the processing

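Leaving out each library in turn moved no count of called members or genes by over 1.5 times: at week 1 against week 0 24 to 25 members were higher and 3 to 4 lower, at week 4 against week 0 19 to 21 and 6 to 7, and at week 4 against week 1 3 to 4 and 17 to 19. DESeq2, limma-voom, RLE scaling, no filter and a file class term also stayed within 1.5 times. On library totals without TMM the median of all genes shifted to -0.18 at week 1 and -0.19 at week 4 against week 0, and all changes reported are relative to TMM scaling. There 20 members were higher and 7 lower at week 1, 16 and 11 at week 4, with medians of 0.209 and 0.083 over the members, and summed levels were 302 CPM per kb at week 0, 440.6 at week 1 and 354.1 at week 4. With upper-quartile scaling 4 were lower at week 4. Tested against a minimum fold of 1.5, 10 members were higher and 0 lower at week 1 (4422 of 16891 tested genes called). At week 4 these were 4 and 0 (4220 called), and at week 4 against week 1 they were 0 and 0 (565 called). In that last comparison 5 members were higher with a filter of 5 CPM in 5 libraries, with only the groups compared, and without week 0 replicates 1 and 4, and 8 without week 4 replicate 6 as well, a setting chosen after seeing the data. Replicate numbers did not pair the libraries (correlations of same-numbered deviations -0.04 to 0.07, with 1, 1 and 0 libraries nearest their own number). With a replicate block, 25 members were higher and 4 lower at week 1, 20 and 7 at week 4, and 4 and 18 at week 4 against week 1.

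Signs that turned belonged to members near 0 (log2 fold changes in brackets). On library totals, at week 1 against week 0 these were ATG4B (-0.026), ATG101 (-0.076), ATG12 (-0.128) and RB1CC1 (-0.018), and at week 4 against week 0 BECN1 and ATG7 (-0.191 each, called lower), GABARAP (-0.182), GABARAPL2 (-0.152), ULK2 (-0.119) and ATG4A (-0.078). With upper-quartile scaling they were ATG16L1 (0.034) and ULK2 (0.044) at week 1. In files without gene length they were ATG12 (-0.179), ATG16L1 (0.052) and ULK2 (0.032) at week 1, and ATG7 (-0.127), GABARAPL2 (-0.167), BECN1 (-0.004) and GABARAP (-0.022) at week 4. In files with gene length they were ATG10 (0.088) and RB1CC1 (-0.043) at week 1. Without week 0 replicates 1 and 4 they were ATG10 (0.135 at week 1, 0.193 at week 4), ATG12 (0.178 at week 4, called) and BECN1 (0.00 at week 4), and with week 4 replicate 6 also left out ATG10 (0.157) and ATG12 (0.178, called) at week 4. For week 4 against week 0 they were ATG7 and BECN1 (-0.015 each) and GABARAP (-0.007) with no filter, ATG7 (-0.007) and BECN1 (-0.006) with only the groups compared, BECN1 (-0.001) with limma-voom, and ATG7 and GABARAPL2 (-0.052 each) and BECN1 (0.00) with a file class term. With that term ATG10 (-0.011) and ATG5 (-0.029) turned at week 4 against week 1. Leaving out 1 library gave -0.046 to 0.175 for ATG12 at week 1, and at week 4 against week 0 -0.182 to 0.038 for ATG12, -0.162 to 0.053 for ATG10, -0.049 to 0.055 for ATG7, -0.021 to 0.023 for BECN1, -0.049 to 0.08 for GABARAP and -0.039 to 0.181 for GABARAPL2. The cause of these turns was not tested.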
